A study of Rattus norvegicus with 19 samples.

Results

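The genes described here are 36 rat genes of fatty acid oxidation and of its control by the peroxisome proliferator-activated receptors (PPARs). They were taken as a list of symbols, and all 36 were matched and tested among 22667 genes. Whole thymus was taken from female Wistar rats, used at 7 weeks of age, that received saline or corn oil through a feeding tube each day for 14 days. Saline at 10 ml/kg was measured on 5 arrays, and corn oil on 5, 4 and 5 arrays at volumes of 2, 5 and 10 ml/kg. Every animal was gavaged, saline was given at 1 volume, and the comparison at 10 ml/kg is therefore the 1 in which only the liquid differed. Per the labels each group began with 6 rats, kept 3 to a cage, and the labels do not name the cages. Each of the 19 arrays was taken as 1 rat, as the numbering of replicates within a group gives it, and p-values measure the spread between these samples. A level is log2 of an array's spot intensity minus that array's 75th percentile, so 0 lies at the 75th percentile and 1 unit is a doubling of signal. Levels of different genes come from different probes and are not compared with each other.

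Mitochondrial fatty acid oxidation begins when acyl-CoA synthetases couple a fatty acid to coenzyme A and the carnitine shuttle carries the acyl group into the mitochondrion. Acyl-CoA dehydrogenases, hydratases, hydroxyacyl-CoA dehydrogenases and thiolases then shorten the chain, and electron transfer flavoprotein passes the electrons to the respiratory chain. Malonyl-CoA, made by acetyl-CoA carboxylase, blocks the entry step at CPT1, and malonyl-CoA decarboxylase removes it. PPARs are nuclear receptors that bind fatty acids and raise the transcription of many of these genes when fat supply is high. The thymus is mostly thymocytes, but fat lies around it and grows into it with age, and brown and white fat cells are rich in these transcripts.

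The tissue label was checked against cell markers. The summed level of 10 thymocyte markers lay between 7.18 and 7.72 on all 19 arrays, with every marker above background on each. Fat cell markers varied far more. The summed level of 10 white adipocyte markers ran from 2.37 to 5.41 in saline, and in the 2, 5 and 10 ml/kg groups from 3.17 to 4.66, 4.16 to 4.48 and 2.39 to 4.17. That of 5 brown adipocyte markers, among them the uncoupling protein Ucp1, ran from -2.01 to 5.03, -1.99 to 3.62, 0.87 to 3.83 and -2.39 to -1.02 in the same order. Saline replicate 2 stood apart as the highest array of all for both fat lists and, at 1.75, for 11 striated muscle markers, which lay between 0.31 and 0.85 on the arrays given corn oil. It was also the highest for B cell (2.34), endothelial (2.32) and erythroid (3.32) markers. Main results are therefore given with and without it. Other lists set the 10 ml/kg group apart: the summed level of 7 hepatocyte markers was -3.12 to -2.69 there and -2.04 or higher on every other array, with 3 of the 7 lower than in saline by the test. That of 4 B cell markers was 0.11 to 0.81 at 10 ml/kg and -0.22 or lower on the other corn oil arrays. These lists move with the calls at 10 ml/kg, and their part in those calls was not tested. The arrays lay on 5 slides. The 1 saline array on a slide with 10 ml/kg arrays was replicate 5, and no slide held both saline and 5 ml/kg. No slide held both 2 and 10 ml/kg either. In bulk tissue, fewer cells of a type and less RNA per cell cannot be told apart.

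**Figure D1:**
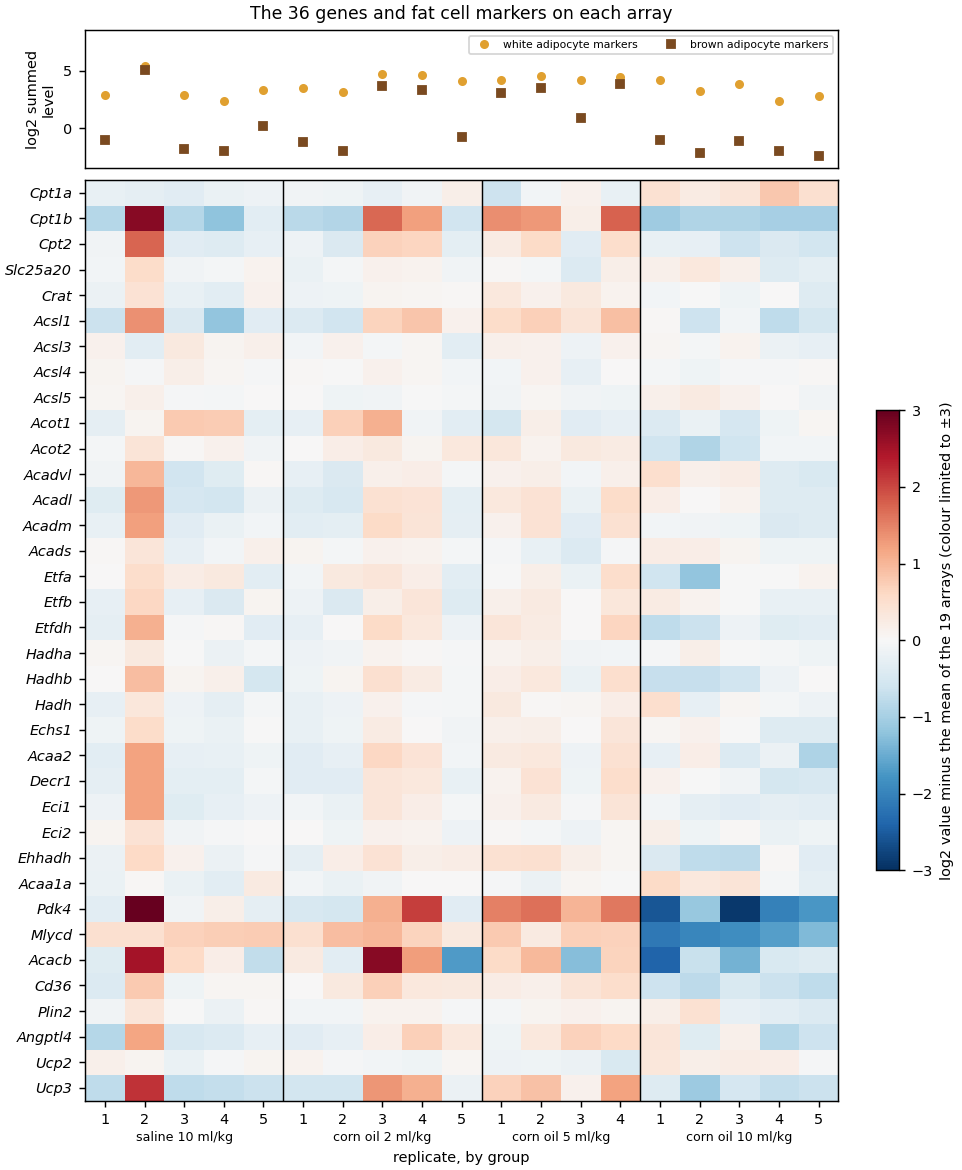
Upper panel, summed log2 level of white (circles) and brown (squares) adipocyte markers on each array. Lower panel, level of each of the 36 genes on each array minus its mean over the 19 arrays, with colour limited to 3 in either direction. Saline replicate 2 is high in most rows and in both marker lists, Mlycd is low on all 5 arrays at 10 ml/kg, and Cpt1b and Ucp3 are high on the arrays with high brown adipocyte markers.

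At 10 ml/kg, corn oil was set against saline. Mlycd fell 5.37-fold, with every array far below all saline arrays, Pdk4, Cd36 and Acot2 fell by less certain amounts, and Cpt1a rose 1.64-fold. The enzymes that carry out the oxidation itself did not pass the test. In all, 5 of the 36 genes passed an adjusted p of 0.05 (limma, Benjamini-Hochberg over all genes), 1 higher and 4 lower, beside 6.34% of all genes (2.8% higher and 3.54% lower). Without saline replicate 2, 4 of the 36 passed, since Acot2 did not, and without replicate 1, 2 or 3 at 10 ml/kg 3 passed. When slide was a block in the fit Mlycd alone passed, beside 2% of all genes. For 4 of the 36 genes (Cpt1a higher, Pdk4, Mlycd and Cd36 lower) the 2 groups did not overlap, beside 5.42% of all genes (2.25% higher and 3.18% lower). The median difference over the 36 was -0.14, beside -0.13 over all genes, and -0.01 beside -0.13 without saline replicate 2. Scaling moved the value over all genes, which was 0.06 after quantile normalization and 0.09 with normexp, beside -0.11 and -0.08 over the 36. The count of all genes called is itself unstable: it was 1436 with all arrays 4696 without saline replicate 5, 931 without saline replicate 3 and 940 without 10 ml/kg replicate 3.

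**Figure D2:**
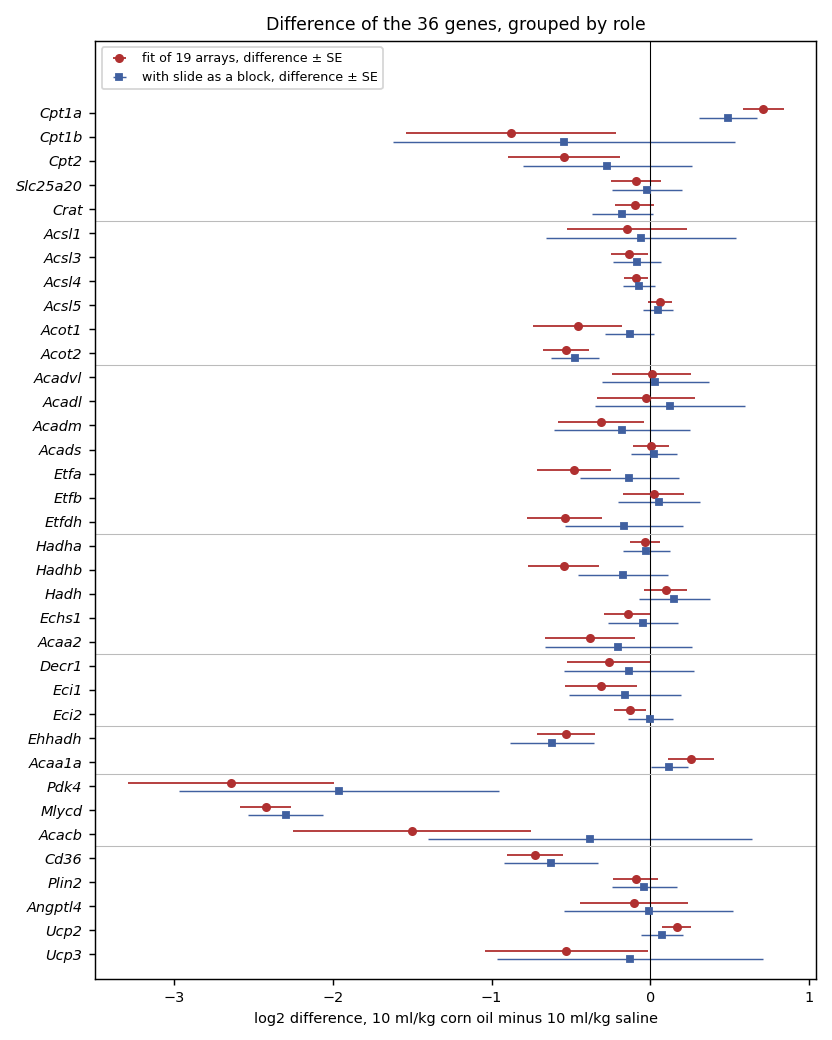
Log2 difference, 10 ml/kg corn oil minus saline, of the 36 genes grouped by role, with SE; red circles are the fit of all 19 arrays and blue squares the fit with slide as a block. Mlycd lies at -2.42 and -2.30 in these fits, and Cpt1a at 0.71 and 0.49.

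The genes that set the choice of fuel came first by size, with Pdk4 measured at or near background and Mlycd well above it. Mlycd, which encodes malonyl-CoA decarboxylase, had levels of 2.71, 2.73, 2.93, 2.98 and 3.00 on saline replicates 1 to 5. At 2 ml/kg the levels were 2.71, 3.17, 3.23, 2.90 and 2.54, and at 5 ml/kg they were 3.01, 2.50, 2.96 and 2.93. At 10 ml/kg they were 0.09, 0.27, 0.37, 0.57 and 0.92. All 5 arrays at 10 ml/kg thus lay far below every other array, whose lowest level was 2.50, and the other groups overlapped. The group means were 2.87 ± 0.14 in saline (SD, n = 5) and 0.44 ± 0.32 at 10 ml/kg (SD, n = 5). Against saline Mlycd fell by 2.42 ± 0.16 (SE; 95% interval -2.77 to -2.08; adjusted p = 6.24e-08), which is 5.37-fold. A fit with slide as a block gave -2.30 (adjusted p = 0.000154), and leaving out saline replicate 2 gave -2.46. Within slide 3 the 3 arrays at 10 ml/kg differed from saline replicate 5 by -2.76, and within slide 5 the 2 arrays at 10 ml/kg differed from a 5 ml/kg array by -1.75. By size of difference Mlycd was number 213 from the lowest among the 22667 genes. These values rest on 1 probe, which was above background on all arrays. Of the 5 tested genes on either side of Mlycd in the RefSeq gene order none passed the test, and the lowest adjusted p among them was 0.0771 (Hsd17b2, 0.77 ± 0.25). The largest difference among them was that of Necab2 (-1.53 ± 0.75, adjusted p = 0.199), in the direction of Mlycd. The 250 bases before the Mlycd start (RefSeq, GRCr8, chr19:64356332-64356581, plus strand) are shown because Mlycd carries the largest change among the 36 genes that was measured above background in both groups:
Mlycd: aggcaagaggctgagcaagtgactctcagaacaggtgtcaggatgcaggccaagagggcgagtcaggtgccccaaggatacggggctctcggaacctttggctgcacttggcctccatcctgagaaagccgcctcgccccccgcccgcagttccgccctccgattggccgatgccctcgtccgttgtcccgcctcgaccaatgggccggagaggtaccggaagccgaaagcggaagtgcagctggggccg

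Pdk4 encodes pyruvate dehydrogenase kinase 4, which restrains the use of glucose and is a classic PPAR target. Its signal was near background, and only 8 of the 19 arrays were well above it. The saline levels were -7.80, -4.14, -7.59, -7.32 and -7.77, with replicate 2 far above the others, and at 10 ml/kg they were -10.07, -8.62, -10.39, -9.53 and -9.23. The 2 groups did not overlap. The measured difference was -2.64 ± 0.65 (adjusted p = 0.0217). No array at 10 ml/kg was well above background, and only 2 of 5 saline arrays were. With each 10 ml/kg array raised to at least the lowest signal well above background, Pdk4 was 2.13-fold lower than in saline. Without saline replicate 2 it was 1.31-fold lower (adjusted p = 0.0233 for the measured difference). These folds are not minimum values, since most saline arrays were not well above background either. Blocking on slide ended the call (-1.96, adjusted p = 0.410), and under normexp background correction the difference was 0.0097. Saline replicate 2 was highest for both Pdk4 and brown adipocyte markers, and with the brown marker level as a covariate, an alternative chosen after seeing the data, Pdk4 differed by -1.92 ± 0.42 (adjusted p = 0.0143). Acacb, the mitochondrial acetyl-CoA carboxylase that makes malonyl-CoA beside CPT1, was well above background on 7 arrays. Its levels ran from -8.49 to -5.26 in saline and from -10.15 to -8.13 at 10 ml/kg, the groups overlapped, and it did not pass (-1.50 ± 0.75, adjusted p = 0.208).

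In the carnitine shuttle, 1 of 5 genes passed. Cpt1a encodes the form of carnitine palmitoyltransferase 1 found in liver and in lymphoid cells. Its levels were -2.19, -2.24, -2.32, -2.16 and -2.13 in saline, and -1.52, -1.72, -1.61, -1.16 and -1.48 at 10 ml/kg. Every array at 10 ml/kg was above every array of the other groups, whose highest level was -1.80. Cpt1a rose by 0.71 ± 0.13 (SE; 95% interval 0.44 to 0.98; adjusted p = 0.00281). Blocking on slide left a rise of 0.49 that did not pass (adjusted p = 0.214), and within slide 3 it was 0.51. It was 0.70 without saline replicate 2 (adjusted p = 0.00708). Of the settings tried, the fixed slide block was the 1 that ended this call. The 250 bases before its start (RefSeq, GRCr8, chr1:209995910-209996159, plus strand) are shown because Cpt1a is the member that rose:
Cpt1a: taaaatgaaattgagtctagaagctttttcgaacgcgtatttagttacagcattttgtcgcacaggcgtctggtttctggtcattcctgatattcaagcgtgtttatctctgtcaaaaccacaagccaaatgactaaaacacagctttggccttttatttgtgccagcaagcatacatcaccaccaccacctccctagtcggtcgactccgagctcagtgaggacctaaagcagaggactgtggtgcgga

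Cpt1b, the form of the enzyme that predominates in muscle and brown fat, behaved otherwise. Its saline levels were -1.87, 1.71, -1.86, -2.22 and -1.32, and at 10 ml/kg they were -2.09, -1.93, -1.91, -2.00 and -2.02. Among saline arrays replicate 2 was high, and the groups overlapped. The difference was -0.88 ± 0.66 (adjusted p = 0.382). The other 3 genes of the shuttle did not pass either. These are Cpt2 on the inner membrane (-0.54), the carrier Slc25a20 (-0.09) and carnitine acetyltransferase Crat (-0.10).

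Among the acyl-CoA synthetases and thioesterases, 1 of 6 passed. Acot2, a mitochondrial thioesterase that releases fatty acids from coenzyme A, had saline levels of -0.48, -0.03, -0.38, -0.30 and -0.54. At 10 ml/kg they were -1.01, -1.33, -1.03, -0.51 and -0.51. The 3 arrays of slide 3 were low, and the 2 of slide 5 lay within the saline range. Acot2 fell by 0.53 ± 0.14 (adjusted p = 0.0375), and this call was lost when slide was a block (-0.47, adjusted p = 0.147). Leaving out saline replicate 2 lost it too (-0.45, adjusted p = 0.0785). Leaving out saline replicates 1, 3 or 4, or replicates 1, 2 or 3 at 10 ml/kg, also ended it, with adjusted p from 0.0516 to 0.0978. A further probe of Acot2 gave -0.42. Acot1 and Acot2 are close paralogs, and probe sequences were not used here, so signal shared between them was not tested. The synthetases Acsl1, Acsl3, Acsl4 and Acsl5 had differences between -0.15 and 0.06, and Acot1 had -0.46 ± 0.28 (adjusted p = 0.290).

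No gene of the oxidation cycle passed at 10 ml/kg against saline in the main fit. With the brown marker level as a covariate, chosen after seeing the data, Acadl alone of them passed (0.38 ± 0.11, adjusted p = 0.0497). The 4 acyl-CoA dehydrogenases, which take long, medium and short chains, had differences of 0.01 (Acadvl), -0.03 (Acadl), -0.31 (Acadm) and 0.00 (Acads). For Acads the 95% interval was -0.24 to 0.25, and for Acadl it was -0.68 to 0.62, so changes of that size are not excluded. The electron transfer genes Etfa, Etfb and Etfdh differed by -0.48, 0.02 and -0.54. The trifunctional protein subunits Hadha and Hadhb, whose genes lie head to head, differed by -0.03 and -0.55 (adjusted p = 0.841 and 0.143). A further probe of Hadha, above background on all 19 arrays, gave -0.24 and followed the probe used only loosely (r = 0.31). Hadh, Echs1 and the thiolase Acaa2 differed by 0.10, -0.14 and -0.38. The auxiliary enzymes for unsaturated fatty acids, which corn oil supplies in plenty, are Decr1, Eci1 and Eci2, and they differed by -0.26, -0.31 and -0.13. In 7 of these genes (Acadl, Acadm, Etfdh, Echs1, Acaa2, Decr1 and Eci1) the highest saline level was that of replicate 2, far from the other 4 arrays. Without it their differences ran from -0.29 (Etfdh) to 0.31 (Acadl). Of the peroxisomal pair, the bifunctional enzyme Ehhadh had levels of -5.05, -4.26, -4.73, -5.03 and -4.90 in saline and differed by -0.53 ± 0.18 (adjusted p = 0.0918) and the thiolase Acaa1a by 0.26 ± 0.14 (adjusted p = 0.250). A further probe of Acaa1a gave 0.03.

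Of the 5 genes of lipid uptake, storage and uncoupling, 1 passed. Cd36, a fatty acid transporter of fat cells, macrophages and endothelium, had saline levels of 1.47, 2.67, 1.76, 1.94 and 1.94. At 10 ml/kg the levels were 1.26, 1.11, 1.44, 1.25 and 1.11. The groups did not overlap, but the highest array at 10 ml/kg and the lowest in saline were close. Cd36 fell by 0.72 ± 0.18 (adjusted p = 0.0203), or by 0.55 without saline replicate 2 (adjusted p = 0.0255). The call was lost with slide as a block (-0.62, adjusted p = 0.367), and without 10 ml/kg replicate 2 the adjusted p was 0.052. A further probe gave -0.56. Plin2, which coats lipid droplets, and Angptl4, a secreted inhibitor of lipoprotein lipase, are among the PPAR targets that respond most readily to fatty acids in other tissues. Plin2 lay between 0.42 and 0.96 in saline and between 0.19 and 1.04 at 10 ml/kg (-0.09 ± 0.14, adjusted p = 0.686). Angptl4 lay between -1.51 and 0.54 in saline and between -1.50 and -0.29 at 10 ml/kg. Its difference of -0.10 ± 0.34 (adjusted p = 0.859) turned to 0.23 without saline replicate 2. Ucp2, the uncoupling protein of lymphoid cells, had saline levels of 1.00, 0.93, 0.65, 0.81 and 0.93 and differed by 0.17 ± 0.09 (adjusted p = 0.242). Ucp3, its relative of muscle and brown fat, differed by -0.53 ± 0.51 (adjusted p = 0.504), and by 0.05 without saline replicate 2.

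**Figure D3:**
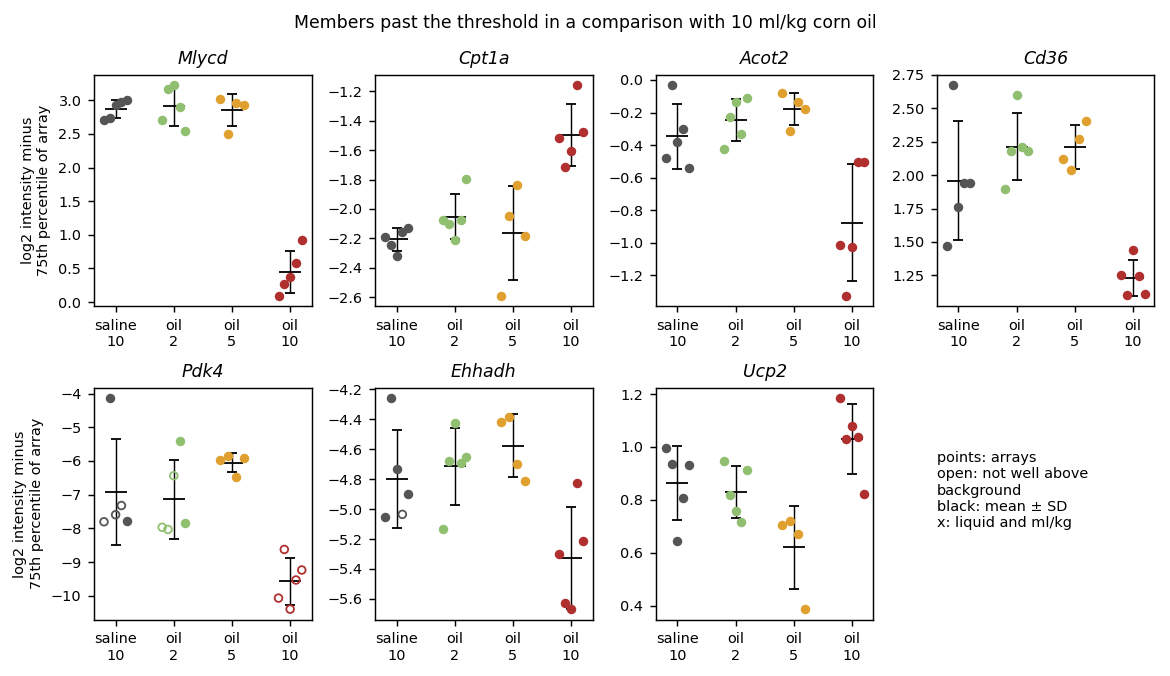
Level of the 7 genes that passed in any comparison with 10 ml/kg corn oil, by liquid and volume. Points are arrays, open points are not well above background, and black bars are the mean and SD. Mlycd lies between 0.09 and 0.92 at 10 ml/kg and at 2.50 or above in the other groups, and all Pdk4 points at 10 ml/kg are open.

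At the lower volumes, 5 ml/kg and 2 ml/kg were each set against the same saline arrays. No member passed at 5 ml/kg (limma, 0 of 36, beside 0% of all genes), where 2 had an unadjusted p under 0.05, Acsl1 (0.89 ± 0.40) and Ucp2 (-0.24 ± 0.10). Among all genes 8.29% had such an unadjusted p. No member passed at 2 ml/kg (limma, 0 of 36, beside 0% of all genes), and none had an unadjusted p under 0.05, beside 0.922% of all genes. No member's groups were free of overlap in either comparison, beside 2.46% of all genes at 5 ml/kg and 0.3% at 2 ml/kg. Mlycd differed by -0.02 ± 0.17 at 5 ml/kg and 0.04 ± 0.16 at 2 ml/kg, and Cpt1a by 0.04 ± 0.14 and 0.16 ± 0.13. The 95% interval of the Mlycd difference was -0.38 to 0.34 at 5 ml/kg and -0.30 to 0.38 at 2 ml/kg, which leaves out a fall of the size seen at 10 ml/kg. At 5 ml/kg 26 of the 36 differences were above 0, with a median of 0.11 beside -0.01 over all genes, and 0.32 without saline replicate 2. At 2 ml/kg the median was -0.01 beside 0.04, and 0.16 without saline replicate 2. The summed white adipocyte level had medians of 2.84 in saline and 4.05, 4.34 and 3.22 in the 2, 5 and 10 ml/kg groups. This level is log2 of summed linear signal, so the brightest marker weighs most, which was Cfd in saline and at 10 ml/kg (means 2.49 and 2.69). Lep, Cidec, Fabp4, Thrsp, Rbp4 and Adrb3 had lower means at 10 ml/kg than in saline. Adipoq, Cfd, Retn and Car3 had higher ones. The part of white adipocyte signal in these values was not tested. In the mean of the 3 corn oil groups against saline, Mlycd alone passed (-0.80 ± 0.13, adjusted p = 0.0205), beside 0.101% of all genes. That value averages groups with and without a large difference, and it did not pass with slide as a block (-0.78, adjusted p = 0.124). It also did not pass when saline replicate 1, 3, 4 or 5 was left out.

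The corn oil volumes were then compared with each other, which holds the liquid constant. These comparisons share the 10 ml/kg arrays with each other and with the comparison against saline. Between 10 and 5 ml/kg, 7 of the 36 passed, 2 higher and 5 lower, beside 7.94% of all genes (3.53% higher and 4.4% lower). Without saline replicate 2, which enters this comparison only through the shared estimate of spread, 12 passed, while the count over all genes went from 1799 to 2130. That count was 755, 835 and 1095 without 5 ml/kg replicate 1, 3 or 4, lay between 1058 and 1153 without 10 ml/kg replicate 1, 2 or 3, and was 3124 without 10 ml/kg replicate 5. Mlycd fell by 2.40 ± 0.17 (adjusted p = 1.58e-07) and Cpt1a rose by 0.67 ± 0.14 (adjusted p = 0.00707). The Cpt1a levels at 5 ml/kg were -2.59, -2.05, -1.84 and -2.19, all below those at 10 ml/kg. Acot2 had -0.08, -0.31, -0.14 and -0.18 at 5 ml/kg, and all 5 arrays at 10 ml/kg were lower, a fall of 0.70 ± 0.15 (adjusted p = 0.0108). Cd36 had 2.12, 2.04, 2.27 and 2.41, well apart from the 1.44 or less at 10 ml/kg, a fall of 0.98 ± 0.19 (adjusted p = 0.00469). Pdk4 was above background on all 4 arrays at 5 ml/kg, with levels of -5.98, -5.84, -6.47 and -5.92. With the 10 ml/kg arrays raised as before, it was at least 3.90-fold lower there (adjusted p = 0.00556 for the measured difference). This minimum holds only for the background subtraction used here, since normexp gave a smaller log2 difference of -0.48 that did not pass. Ehhadh and Ucp2 had not passed against saline. Ehhadh had levels of -4.42, -4.38, -4.70 and -4.81 at 5 ml/kg and -5.30, -5.63, -5.66, -4.82 and -5.21 at 10 ml/kg, and it fell by 0.75 ± 0.19 (adjusted p = 0.0267). This call was lost in 13 of 31 settings, among them normexp (-0.31) and leaving out 5 ml/kg replicate 1, 2 or 3 or 10 ml/kg replicate 2 or 3 (adjusted p from 0.0557 to 0.0903). Ucp2 had levels of 0.70, 0.72, 0.67 and 0.39 at 5 ml/kg and 1.18, 1.03, 1.08, 1.04 and 0.82 at 10 ml/kg, and it rose by 0.41 ± 0.10 (adjusted p = 0.0179). The Ucp2 call was lost in 7 of 31 settings. Among them were slide as a random block (adjusted p = 0.125), normexp (adjusted p = 0.0775) and leaving out 5 ml/kg replicate 4 (0.33, adjusted p = 0.0629). For Ehhadh and Ucp2 alike the 2 groups did not overlap. That held for 13 of the 36 genes, beside 11.3% of all genes.

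The median of the 36 between 10 and 5 ml/kg was -0.38, beside -0.11 over all genes. Cpt1b differed by -2.14 ± 0.70 (adjusted p = 0.0693), Acsl1 by -1.03 ± 0.40 (adjusted p = 0.119) and Ucp3 by -1.40 ± 0.54 (adjusted p = 0.119). These 3 were among the genes that passed without saline replicate 2, with adjusted p of 0.0132, 0.0322 and 0.0224. The summed brown adipocyte level did not overlap between these groups, and Ucp1 fell by 8.93 ± 2.09 (adjusted p = 0.0166). Ucp1 was above background on 16 of the 19 arrays, with a mean of -7.17 at 10 ml/kg, so the size of its fall is not firm. From 5 to 10 ml/kg the mean went from 1.15 to -3.18 for Cidea and from 0.38 to -2.61 for Cox8b. It moved less for Dio2 (-6.33 to -6.80) and Elovl3 (-7.66 to -8.52). With the brown marker level added as a covariate, the median of the 36 was 0.19. In that fit 4 of the 36 passed, while the count over all genes was 868 in place of 1799. Mlycd (-2.45, adjusted p = 1.27e-05) still passed, and Acadl, Acadm and Acads were higher by 0.67, 0.50 and 0.49. The other 6 of the 7 genes called without the covariate did not pass. Of these Ucp2 (0.41), Cpt1a (0.57) and Acot2 (-0.61) differed by about as much as before, with adjusted p of 0.0845, 0.079 and 0.0912. Cd36 (-0.54, adjusted p = 0.0904), Pdk4 (-1.68, adjusted p = 0.0896) and Ehhadh (-0.44, adjusted p = 0.266) differed by less. Since the brown marker level did not overlap between the 2 groups, volume and marker level cannot be told apart in this fit. Blocking on slide left Mlycd as the 1 call (-2.27, adjusted p = 0.000252; 1.2% of all genes).

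Between 10 and 2 ml/kg, 6 of the 36 passed, 1 higher and 5 lower, beside 12.5% of all genes (3.69% higher and 8.77% lower). Mlycd fell by 2.46 ± 0.16 (adjusted p = 4.32e-08), Cd36 by 0.98 ± 0.18 (adjusted p = 0.00252), Acot2 by 0.63 ± 0.14 (adjusted p = 0.0121) and Ehhadh by 0.61 ± 0.18 (adjusted p = 0.0404), though quantile normalization turned this last sign (0.069). At 2 ml/kg Acot2 had levels of -0.42, -0.23, -0.14, -0.33 and -0.11, Cd36 had 1.90, 2.18, 2.60, 2.21 and 2.18, and Ehhadh had -5.13, -4.68, -4.43, -4.69 and -4.65. The Cd36 and Acot2 levels lay above all those at 10 ml/kg, while replicate 1 of Ehhadh lay within them. Cpt1a, with -2.08, -2.11, -2.21, -2.07 and -1.80 at 2 ml/kg, rose by 0.56 ± 0.13 (adjusted p = 0.0127) and did not overlap. Pdk4 had -7.97, -8.03, -6.44, -5.42 and -7.84 at 2 ml/kg and was lower at 10 ml/kg (adjusted p = 0.0265). With the 10 ml/kg arrays raised as before, the fold was 1.84. That is not a minimum, since only 2 of 5 arrays at 2 ml/kg were above background. Leaving out replicate 3 or 4 at 2 ml/kg, or replicate 1 or 3 at 10 ml/kg, brought the count to 4. With slide as a block it was 1, Mlycd (-2.29, adjusted p = 0.000355), beside 1.23% of all genes. No slide held arrays of both volumes, so that fit compares them only through the other groups. For 6 of the 36 the groups did not overlap, beside 10.3% of all genes. The count over all genes, 2825, lay between 1219 and 1691 without 2 ml/kg replicate 2, 3 or 4 or 10 ml/kg replicate 1, 2 or 3. It lay between 4421 and 5324 without saline replicate 5, 2 ml/kg replicate 5 or 10 ml/kg replicate 4 or 5. Between 5 and 2 ml/kg no member passed (limma, 0 of 36, beside 0% of all genes), and Ucp2 was the 1 member with an unadjusted p under 0.05, beside 8.5% of all genes. Among the named genes without calls, Angptl4 ran from -0.99 to 0.06 at 2 ml/kg and -0.78 to 0.03 at 5 ml/kg, and Plin2 from 0.52 to 0.69 and 0.55 to 0.72. Acacb ran from -9.44 to -5.01 and -9.03 to -6.79, and Ucp3 from -4.15 to -2.28 and -3.48 to -2.39. Crat lay higher on every array at 5 ml/kg than at 2 ml/kg, beside 3.55% of all genes whose groups did not overlap.

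Other genes of these pathways were looked at in the same way. Of 102 further genes listed by role, 88 were tested. Between 10 ml/kg corn oil and saline 4 of the 88 passed, 1 higher and 3 lower, beside 6.34% of all genes. None of the 88 passed with slide as a block, beside 2% of all genes. Without saline replicate 2 neither Ppara nor Slc27a3 passed. Among 19 further peroxisomal genes and 20 further mitochondrial genes none passed. Among 16 PPARs, partners and coregulators 1 passed, Ppara itself (-2.27 ± 0.64, adjusted p = 0.0458; -0.55 with slide as a block), while Ppard and Pparg did not (-0.77 and -0.14). Of 33 other PPAR targets and fatty acid handling genes 3 passed. These were the transporter gene Slc27a3 (0.55 ± 0.16, adjusted p = 0.0465), the omega-hydroxylase Cyp4a3 (-3.11 ± 0.60, adjusted p = 0.00489) and the pyruvate dehydrogenase kinase Pdk1 (-0.71 ± 0.13, adjusted p = 0.0035). The 88 genes had a median of -0.14, the same as the 36. Between 10 and 5 ml/kg 12 of the 88 passed, 3 higher and 9 lower, and between 10 and 2 ml/kg 8 passed, 2 higher and 6 lower, beside 7.94% and 12.5% of all genes. Without saline replicate 2 these counts were 22 and 16, while those over all genes went from 1799 to 2130 and from 2825 to 2941.

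Fat cell markers varied from array to array, and many of the 36 genes varied with them. Over the 19 arrays, 15 of the 36 genes were related to the summed white adipocyte level by Pearson's r and 14 by Spearman's rho (permutation test, 100000 resamples, two-sided, adjusted over 21846 genes without missing values), beside 1.46% of all genes. The median r was 0.64 over the 36 and -0.02 over all genes. The highest was that of Acsl1, the main acyl-CoA synthetase of fat (r = 0.96, rho = 0.95, permutation p = 1e-05, the smallest these resamples can give, adjusted p = 0.00173). Angptl4 (r = 0.92), Ucp3 (r = 0.88), Acadl (r = 0.88) and Decr1 (r = 0.87) followed, with rho of 0.91, 0.92, 0.88 and 0.86 and the same p. The genes with calls at 10 ml/kg against saline did not pass here, and their r ran from -0.31 to 0.67. Mlycd had r = 0.24 (rho = 0.13, permutation p = 0.312), Cpt1a had r = -0.31 (rho = -0.22, permutation p = 0.198), and Cd36 had r = 0.67 (rho = 0.70, permutation p = 0.00204, adjusted p = 0.107). Pdk4 had r = 0.63 (rho = 0.61, permutation p = 0.0039, adjusted p = 0.172). Acot2 had r = 0.33 (rho = 0.48, permutation p = 0.166). The number that passed rests partly on few arrays, among the 36 and among all genes. Without the 2 arrays farthest from the median, saline replicates 2 and 4, 7 of the 36 passed, beside 0.54% of all genes. In that setting r was 0.94 for Acsl1, 0.91 for Angptl4 and 0.85 for Ucp3. With values centred within each slide 7 passed, beside 0.819% of all genes, with r of 0.97, 0.90 and 0.93 for these genes. Without saline replicate 2 alone 9 passed, beside 0.714% of all genes. The median r over the 36 was 0.56, 0.70 and 0.51 in these settings, in the same order. Acsl1, Acadl, Eci1, Angptl4 and Ucp3 are the 5 that passed in every one of these settings and under normexp.

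**Figure D4:**
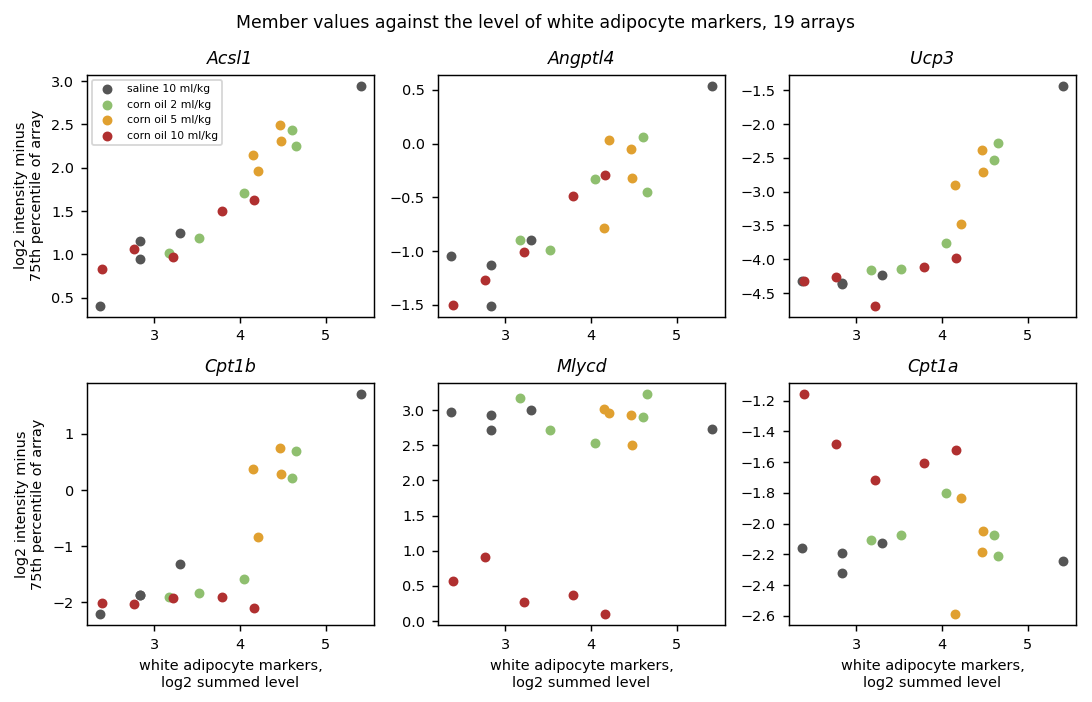
Level of 6 of the genes on each of the 19 arrays against the summed log2 level of 10 white adipocyte markers, coloured by liquid and volume. Acsl1, Angptl4, Ucp3 and Cpt1b climb with the markers across groups, while the 5 arrays at 10 ml/kg are the lowest for Mlycd and the highest for Cpt1a.

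The arrays that are high in Cpt1b and Ucp3 are also those with brown adipocyte signal, a division that Cpt1a does not follow. The brown marker level was above 3 on saline replicate 2 (5.03), on 2 ml/kg replicates 3 and 4 (3.62 and 3.28) and on 5 ml/kg replicates 1, 2 and 4 (3.04, 3.52 and 3.83). On every other array it was 0.87 or lower. Cpt1b was 1.71 on the first of these, 0.70 and 0.22 on the next pair and 0.37, 0.29 and 0.76 on the last 3, and it was -0.84 or lower on all others. The highest Cpt1b level at 10 ml/kg was -1.91. Ucp3 followed the same division, with levels of -2.90 or above on the 6 arrays and -3.48 or below elsewhere. No array at 10 ml/kg belonged to the 6.

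Promoters were searched for the direct repeat to which PPARs bind together with RXR. The motif was AGGTCA followed, after 1 base of any kind, by AGGTCA again, searched on both strands of the 250 bases before the gene start with up to 2 mismatches among its 12 fixed letters. RefSeq windows (GRCr8) were found for 32 of the 36 genes, and those of Cpt1b, Acadl, Acaa2 and Decr1 were not used here. A match lay in 6 of the 32 (18.8%), beside 853 of 27457 genes (3.11%). The windows of Hadha and Hadhb overlap by 200 bases and neither holds a match. The matching stretches are shown, with the match in capitals and up to 10 bases on either side, because they are the 6 members whose start region holds these letters:
Ucp3: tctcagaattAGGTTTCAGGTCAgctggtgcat
Echs1: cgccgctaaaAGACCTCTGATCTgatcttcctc
Crat: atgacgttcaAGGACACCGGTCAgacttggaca
Etfa: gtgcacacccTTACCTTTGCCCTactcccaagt
Acadvl: acgggagaagAGGTCAGTGGTCAaggc
Acacb: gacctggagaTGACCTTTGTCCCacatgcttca

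Acadvl has 1 mismatch and the others 2. The match lies on the plus strand of the gene in Ucp3, Crat and Acadvl and on the opposite strand in Echs1, Etfa and Acacb. In none of the 6 did the level differ between 10 ml/kg corn oil and saline by the test, with differences of -0.53 (Ucp3), -0.14 (Echs1), -0.10 (Crat), -0.48 (Etfa), 0.01 (Acadvl) and -1.50 (Acacb). The windows of Mlycd and Cpt1a printed above hold no match under this rule, which says only that these letters are not in those 250 bases.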

How the data were processed

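RNA of whole thymus was labelled with Cy3 and hybridised to 1-colour Agilent arrays, 1 array a sample. The authors deposited linear spot intensity values whose background had been subtracted, with spatial detrending, in Feature Extraction (version 10.7.3.1, per the file headers), before any scaling between arrays. Here log2 intensity was taken relative to each array's 75th percentile (1852 to 2954), without control spots, with non-uniform and population outlier spots set to missing and spots of a probe averaged. Probes were named by accession through RefSeq (GRCr8): 17328 probes matched 14629 genes, and 13039 kept their identifier. Probes well above background on at least 4 arrays with at least 2 values a group were kept, and the brightest probe stood for a gene. For 31 of the 36 genes 1 probe was present. Groups were compared with limma 3.58.1 in R 4.3.3 (lmFit, eBayes, all 19 arrays, 15 residual degrees of freedom, two-sided), adjusted by Benjamini-Hochberg over 22667 genes at 0.05, and checked on simulated data. Their number of arrays limits the precision.

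Where a group had no array above background, a fold is the bright group's mean against the dim group's mean of, per array, the higher of its own signal and the lowest signal well above background. Such a fold is a minimum only where every array of the bright group was well above background, and only under the background subtraction used. The members, the lists and the adipocyte marker lists were chosen with earlier results of these data known. Values are given by array for every member past the threshold and for 9 members named beforehand, and others by group. Replicate numbers did not pair the samples: deviations of 27 same-numbered pairs correlated with a median of -0.02 (-0.64 to 0.71), above 0.1 in 6. The planned normexp correction used median in place of mean spot signal, which the files hold. The relation to markers was adjusted over all genes without missing values. The authors' value table, a linear intensity, served as an alternative. Alternatives were slide (fixed and random), replicate number, quantile normalization, normexp, the authors' table, no filter, the mean of probes, fewer groups, array weights and each array left out. Scan day and the brown marker covariate were added after seeing the data.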

Additional observations from a re-analysis of the deposited data

Results flagged for a closer look

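In 15 of 144 sets of values (36 genes in 4 groups) the highest or lowest array lay far from the rest by Dixon's test. For a single set chance gives about 1 in 20. The 36 genes share the same arrays, so the sets are not independent and 1 array can count many times. In 11 of the 15 the array was saline replicate 2, which was also highest for fat and muscle markers. It was the highest saline array for Cpt1b (1.71), Cpt2 (0.93), Ucp3 (-1.43) and Pdk4 (-4.14). It was likewise highest for the dehydrogenases Acadl (3.25) and Acadm (2.88), for Etfdh (0.14), Echs1 (2.78) and Acaa2 (1.50), and for the auxiliary enzymes Decr1 (2.50) and Eci1 (1.06). At 5 ml/kg, replicate 3 was lowest for Acadvl (0.90) and Acsl3 (-0.72), replicate 2 was highest for Acsl5 (0.95) and replicate 4 was lowest for Ucp2 (0.39).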

How the results depend on the processing

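The fall of Mlycd kept its direction and its call in all 31 settings, from -2.54 to -2.24 against saline, and in all 31 against 5 and 2 ml/kg. The rise of Cpt1a against saline kept its call in 30 of 31. Acot2 kept it in 17, Pdk4 in 23 and Cd36 in 23. Ehhadh kept its call in 18 against 5 ml/kg and 16 against 2 ml/kg, and Ucp2 in 24 against 5 ml/kg. The count of members called between 10 ml/kg and saline, 5, was 1 with slide as a fixed block, 2 with slide as a random block, 2 with normexp, 2 in a fit of only those groups, 2 with scan day as a block, and 3 to 6 with each array left out. Over all genes 1436 became 453, 898, 325, 470 and 1186 in these settings, and 931 to 4696 with each array left out. Between 10 and 5 ml/kg the 7 became 1, 4, 3, 7 and 1 under the same settings, while 1799 over all genes became 273, 667, 286, 788 and 284. The 7 became 13 with array weights, 4 with the brown marker covariate, and 6 to 12 with each array left out. Over all genes 1799 became 6254, 868 and 755 to 3124 under these last 3. Between 10 and 2 ml/kg the 6 became 1, 2, 3, 4 and 2, and 4 to 7. Over all genes 2825 became 278, 746, 334, 1160 and 772, and 1219 to 5324. The 1 call for the mean of the corn oil groups became 0 with slide as a fixed block, with the replicate block and with normexp, and 0 to 1 with each array left out. The replicate block gave 4, 6 and 5 for the comparisons of 10 ml/kg with saline, 5 and 2 ml/kg, and 0 for those without calls. Over all genes it gave 1063, 1120 and 1671 for the comparisons of 10 ml/kg. The 15 genes related to white adipocyte markers became 7 without the 2 farthest arrays, 7 centred by slide and 9 without saline replicate 2. Over all genes 320 became 118, 179 and 156 in these settings. Against saline the sign turned for Cpt1b (0.013) with the brown covariate, for Pdk4 (0.0097) and Acacb (0.16) with normexp, and for Plin2 (0.061) with array weights. It turned for Angptl4 with array weights (0.34), without saline replicate 2 (0.23) or 10 ml/kg replicate 4 (0.04; range with each array left out -0.28 to 0.23) and with the brown covariate (0.22). It turned for Ucp3 without saline replicate 2 (0.050; range -0.68 to 0.050) and with the brown covariate (0.15), and for Ehhadh between 10 and 2 ml/kg with quantile normalization (0.069). For these the cause was not tested. Over all genes the share of higher among called genes between 10 ml/kg and saline was 44.2%, 57.4% with slide as a fixed block, 73.3% with quantile normalization, 74.2% with normexp and 20.7% with array weights. Under quantile normalization it went from 44.5% to 66.8% against 5 ml/kg and from 29.6% to 72.8% against 2 ml/kg. Signal over background limits Pdk4 and Acacb.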
